A study of Homo sapiens with 30 samples.

Results

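SWI/SNF chromatin remodelers exist as related assemblies that share a catalytic core and differ in a few subunits. PBRM1, ARID2, BRD7 and PHF10 are the subunits that define PBAF, BRD9 is the bromodomain subunit that defines non-canonical BAF, and the double PHD finger proteins DPF1, DPF2 and DPF3 are alternative subunits of canonical BAF. ACTL6A is an actin-related protein common to the assemblies, and SS18 is found in the BAF forms but not in PBAF. SNF5, the product of SMARCB1, is a core subunit of canonical BAF and PBAF that non-canonical BAF lacks, and its loss defines malignant rhabdoid tumours.

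These 10 genes were chosen by name, and all 10 were found among the 20367 gene symbols of the PRO-Seq table, each with 1 transcript. The cells were G401, an established malignant rhabdoid tumour line that lacks SNF5, carrying a lentiviral tetracycline-inducible EGFP, OmoMYC or SNF5 construct and induced for 24 h with doxycycline at 1 μg/ml. OmoMYC is a dominant-negative form of MYC. All 3 groups therefore share the SNF5-null background, the lentivirus and the doxycycline, and EGFP is the control. PRO-Seq, a nuclear run-on assay that maps active RNA polymerases, was performed in 3 samples per construct, ATAC-Seq, which maps open chromatin, in 3, and MYC ChIP-Seq in 2. The counts come from bulk cultures of transduced cells, so a change in every cell and a change in a share of the cells cannot be told apart. Nothing in the labels says that the numbered samples were separate transductions. The p-values measure the spread left between these samples once the replicate number is accounted for.

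The labels were checked on SMARCB1, which had from 1 to 6 gene body reads in the 6 EGFP and OmoMYC samples and from 2870 to 4467 in the 3 SNF5 samples. Gene body reads summed to between 28444943 and 46957634 per sample. Promoter-proximal reads were less even: the 3 samples numbered 1 had from 518900 to 672874, and the other 6 from 2027512 to 3386528. Samples were therefore compared within their replicate number. Each list of peaks was called in 1 sample, and the lists differed in length: the MYC lists held 940 and 5396 peaks with EGFP, 137 and 27 with SNF5, and no peak with OmoMYC, for which each deposited list is a single placeholder line. The ATAC-Seq lists ran from 7260 peaks (OmoMYC replicate 1) to 33596 (SNF5 replicate 1), and the 3 SNF5 lists were longer than the 6 others, except that SNF5 replicate 3 was shorter than OmoMYC replicate 2.

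The sequences at the starts that the results below turn on are given first. They are RefSeq promoters on GRCh38.p14, from 250 bases before to 50 bases after an annotated start, on the strand of the gene. PBRM1 and BRD9 are shown because they had MYC peaks at the start in both EGFP samples, and DPF3 because its gene body signal moved most, a choice made after its values were seen. The E-box CACGTG is bound by MYC with MAX, and a variant of this motif that was also searched is CACGCG. The core of the site bound by the factor NF-Y is CCAAT, which reads on the opposite strand as ATTGG. All were searched on both strands, and their letters are in capitals.
PBRM1, chr3:52685864-52686163, minus strand: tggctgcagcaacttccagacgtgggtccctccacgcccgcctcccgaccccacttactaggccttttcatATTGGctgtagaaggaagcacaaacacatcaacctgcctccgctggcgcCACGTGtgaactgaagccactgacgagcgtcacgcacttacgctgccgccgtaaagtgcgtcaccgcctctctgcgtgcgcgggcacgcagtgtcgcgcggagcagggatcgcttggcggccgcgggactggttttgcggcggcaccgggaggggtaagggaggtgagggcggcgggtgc
BRD9, chr5:892501-892800, minus strand: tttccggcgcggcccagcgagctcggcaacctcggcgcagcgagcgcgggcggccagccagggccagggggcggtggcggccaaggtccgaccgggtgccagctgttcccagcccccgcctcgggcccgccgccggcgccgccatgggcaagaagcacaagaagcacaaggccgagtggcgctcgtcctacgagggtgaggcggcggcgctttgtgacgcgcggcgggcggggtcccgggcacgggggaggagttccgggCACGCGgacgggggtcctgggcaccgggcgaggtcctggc
DPF3, chr14:72894052-72894351, minus strand: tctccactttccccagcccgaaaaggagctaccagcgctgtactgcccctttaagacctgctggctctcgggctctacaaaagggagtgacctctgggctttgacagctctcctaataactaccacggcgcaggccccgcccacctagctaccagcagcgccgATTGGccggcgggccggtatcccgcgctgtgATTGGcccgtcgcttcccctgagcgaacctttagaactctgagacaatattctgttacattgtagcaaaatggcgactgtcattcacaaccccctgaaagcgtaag

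Promoters of 8 of the 10 genes were listed, in 12 windows, and ARID2 and ACTL6A had no entry. CACGTG was found in 1 of the 12 windows, that of PBRM1, at position -130 from the annotated start, and in 7.26% of the 35116 promoters listed. CACGCG was found once, in the BRD9 window, at position 10 past the annotated start of that window, against 11.4% of all promoters. CCAAT was found in the PBRM1, DPF1, DPF2, DPF3 and SS18 windows, against 34.6% of all promoters. In the DPF3 window it occurs at positions -87 and -56. Positions in a window count from its own annotated start, and the MYC summits below from the start of the PRO-Seq transcript. For PBRM1 and BRD9 these starts differ, so the positions cannot be set side by side. A match is a string of letters in the window and does not show binding.

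MYC peaks were listed at the starts of PBRM1 and BRD9 in both EGFP samples. In hg19 coordinates, PBRM1 (NM_018313, chr3:52579368-52719866, minus strand) had a peak with a summit at -217 bp from the start and a fold enrichment of 5.48 in EGFP replicate 1. In EGFP replicate 2 the summit was at -314 bp with a fold enrichment of 11.5. A weaker peak at -191 bp, with a fold enrichment of 4.58, was still listed in SNF5 replicate 1, and none in SNF5 replicate 2. BRD9 (NM_023924, chr5:863850-892939, minus strand) had summits at 304 and 309 bp past its start, with fold enrichments of 5.59 and 10.6 in the 2 EGFP samples. No MYC peak was listed at BRD9 with SNF5 or OmoMYC.

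These are 2 of 10 genes, beside 4.31% of all genes in the table with a MYC summit within 1 kb of the start in both EGFP lists and 4.35% in EGFP replicate 1. In the longer list, EGFP replicate 2, the count was 5 of 10, beside 23.1% of all genes. The additional genes were ARID2 (summit at -980 bp, fold enrichment 5.46), PHF10 (-906 bp, 5.84) and ACTL6A (104 bp past the start, 5.56). BRD7, DPF1, DPF2, DPF3 and SS18 had no MYC peak within 10 kb of the gene in any list. The SNF5 lists named 0.614% and 0.0786% of all genes, so 1 and 0 of 10 genes there rest on short lists. The shares cover all 20367 symbols, of which 15060 reached a mean of 10 gene body reads, as all 10 genes here did. Shares among genes of similar level were not counted. Peaks hold no read counts, and whether binding changed was not tested.

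Both recurrent peaks lie at starts that a divergent gene shares. GNL3, which encodes a nucleolar GTP-binding protein, starts 155 bp from the PBRM1 start on the other strand, and the PBRM1 summits fall in its untranslated region. TRIP13, which encodes an ATPase of the spindle checkpoint, starts 60 bp from the BRD9 start on the other strand. The BRD9 summits lie in the untranslated region of BRD9, beside a second annotated BRD9 start. A peak in such a place cannot be assigned to 1 of the 2 genes. CACGTG lies within 100 bp of the summit in EGFP replicate 1 at both genes, as it does for 51.3% of all summits in EGFP replicate 1 and 26.1% in EGFP replicate 2. The E-box in each peak is shown with its flanks in hg19, on the plus strand, with the motif in capitals.
PBRM1, chr3:52720042-52720071: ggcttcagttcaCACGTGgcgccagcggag
BRD9, chr5:892535-892564: cccaggacccctCACGTGtgcccggttccc

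The PBRM1 match is the E-box of the promoter window above, read from the other strand. It lay within 100 bp of the summit in EGFP replicate 1 and SNF5 replicate 1, and beyond 100 bp in EGFP replicate 2. At BRD9 the match lay within 100 bp in both EGFP samples, together with 2 matches to CACGCG.

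Open chromatin was listed at most of the starts in every construct. An ATAC-Seq peak within 1 kb of an annotated start was present in all 3 samples for 7 of 10 genes with EGFP, 5 with OmoMYC and 9 with SNF5, beside 34.8%, 31.0% and 50.7% of the 16981 genes with a GRCh38 start. These shares, too, include genes with few reads. ARID2, PHF10, DPF3, ACTL6A and SS18 had an ATAC-Seq peak at a start in all 9 samples. At BRD7 the peak was missing only from OmoMYC replicate 1, which is the shortest list, and at PBRM1 it was listed in all 3 EGFP and all 3 SNF5 samples but only in replicate 2 with OmoMYC. At BRD9, peaks at annotated starts were listed in 2 EGFP, 2 OmoMYC and 3 SNF5 samples.

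**Figure D1:**
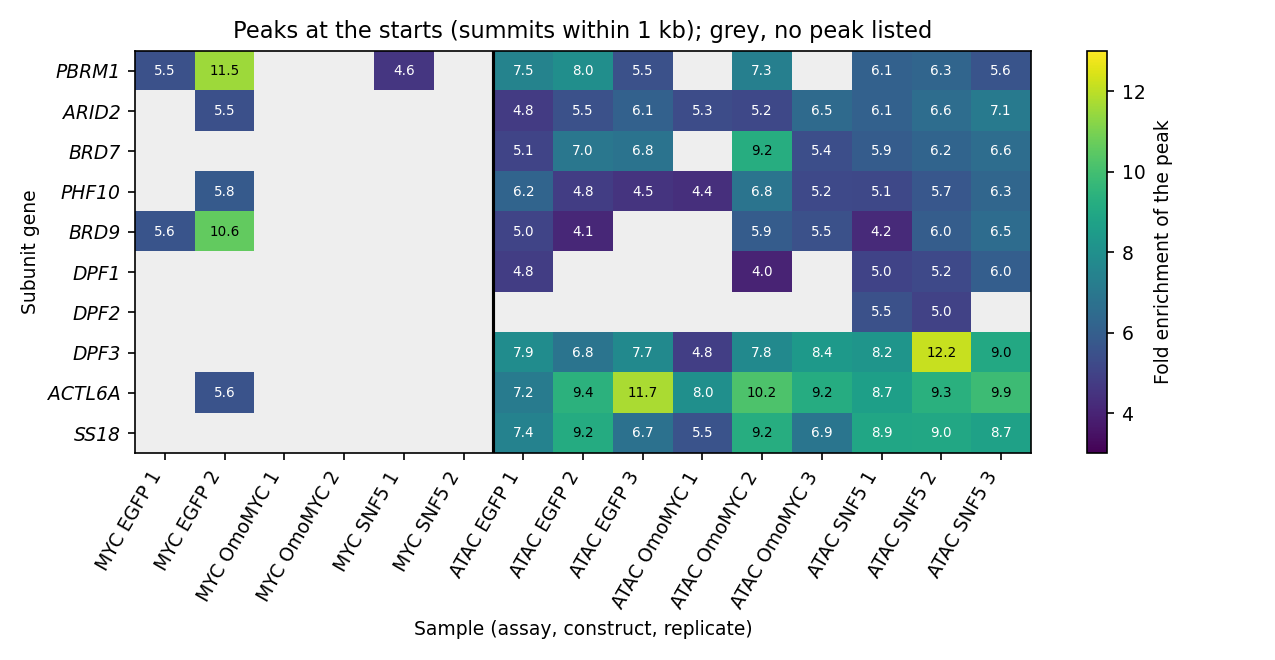
Fold enrichment of peaks with a summit within 1 kb of a start of the 10 genes (rows) in the 6 MYC ChIP-Seq and 9 ATAC-Seq samples (columns, by assay, construct and replicate); grey cells have no listed peak. MYC peaks are listed mainly in EGFP replicate 2, and the DPF2 start has an ATAC-Seq peak only in SNF5 replicates 1 and 2.

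By the strict rule, present in all 3 samples of a construct and in 0 of 3 EGFP samples, 0 of 10 genes gained an open site at a start with SNF5, beside 2.18% of all genes, and 0 of 10 with OmoMYC, beside 0.0412%. None lost one with either construct, beside 0.00589% and 0.0177%. DPF2, the ubiquitous member of its family, came closest: its peak (chr11:65333694-65333907, hg38) was listed in SNF5 replicates 1 and 2 with fold enrichments of 5.46 and 4.96, and in none of the other 7 samples. With 2 of 3 samples as the rule it would be 1 gene of 10, beside 5.05% of all genes. The DPF1 start had a peak (chr19:38229695-38229948, hg38) in 2 SNF5 samples only, and a second site at an inner DPF1 start was listed in 1 EGFP, 1 OmoMYC and 3 SNF5 samples. Inside PBRM1, a site at 15024 bp past the start (chr3:52670787-52670994, hg38) was listed in 2 SNF5 samples and in no other. The same was true inside BRD7 of a site at 45522 bp past the start (chr16:50323345-50323734, hg38). The SNF5 lists are also the longer ones, and the part of list length in these sites was not tested. When each list was limited to its 7260 top peaks, 4 of 10 genes had an open site in all 3 samples with each of the 3 constructs. The share of all genes was not counted at this limit, and the shares above belong to the full lists.

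Gene body reads, counted from 1000 bp past the start to the end of the gene, show how much polymerase is elongating. Levels are given as RPKM, here reads per kb of gene body for each 1000000 gene body reads after RLE scaling. BRD9 and SS18 had the highest levels, 3.59 and 3.52 as means of the 9 samples, and BRD9 was the higher of the 2 in 4 of 9 samples. DPF2 followed at 2.67, ARID2 at 1.94, PHF10 at 1.81, BRD7 at 1.70, ACTL6A at 1.45 and PBRM1 at 1.34. Among these 8, the ranges of neighbours over the 9 samples overlapped at each step except from DPF2 to ARID2. DPF1 had a level of 0.489 and DPF3 of 0.00748, and their ranges overlapped with no other gene. The 3 DPF genes therefore differed widely: by gene body level DPF2 stood at percentile 76.8 of the genes tested, DPF1 at 31.3 and DPF3 at 4.52.

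**Figure D2:**
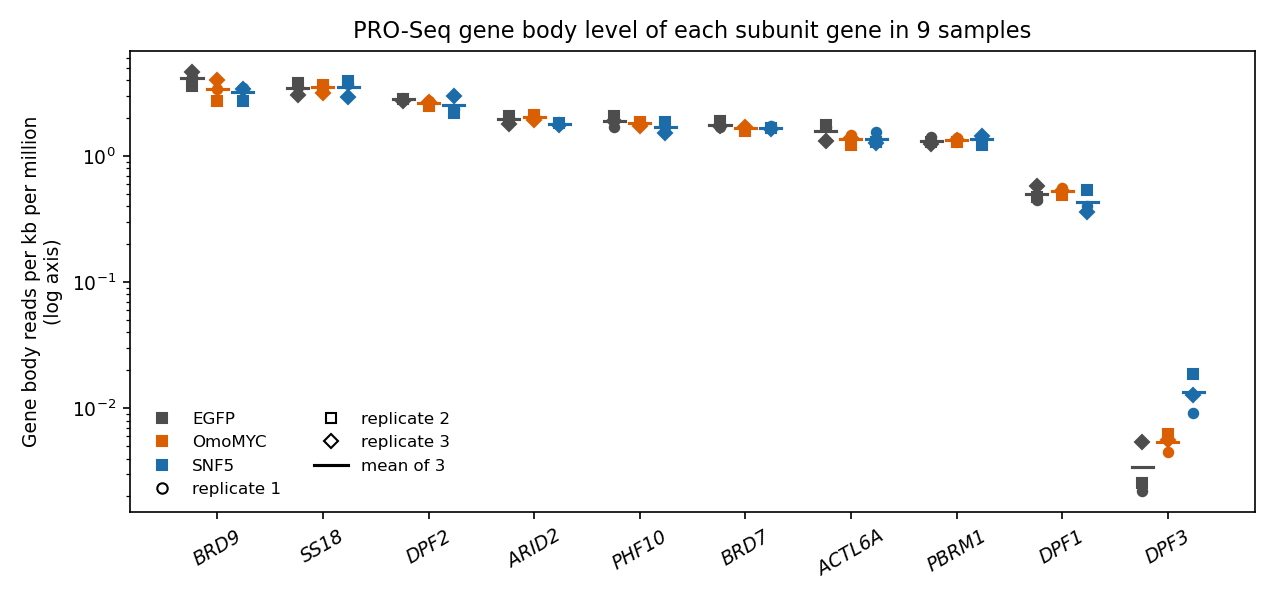
Gene body RPKM (reads per kb, scaled to gene body totals, log axis) of the 10 subunit genes in each of 9 PRO-Seq samples, with colour for the construct, symbol for the replicate number and a bar for the mean of 3. The 8 genes on the left lie between 1.23 and 4.68, DPF1 lies lower, and DPF3 lies under 0.02 in every sample.

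For the comparison of SNF5 with EGFP, edgeR's quasi-likelihood test with Benjamini-Hochberg adjustment over the 15060 genes tested called 2 of the 10 genes at an adjusted p of 0.05, beside 34.5% of all genes: 1 was higher, beside 17.2%, and 1 lower, beside 17.3%. For OmoMYC against EGFP it called 1 of 10, beside 8.97%: 0 were higher, beside 4.2%, and 1 lower, beside 4.77%. For SNF5 against OmoMYC it called 2 of 10, beside 19.2%: 1 was higher, beside 11.5%, and 1 lower, beside 7.68%. The median log2 fold change over the 10 genes was -0.14, -0.02 and -0.04 in these comparisons, and over all genes -0.03, -0.00 and -0.01. The 3 comparisons share samples. Without the replicate block none of the 10 genes was called in any of them, beside 218, 1 and 73 of all 15060 genes.

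BRD9 was lower with both SNF5 and OmoMYC. In order of replicate number, its gene body level was 4.25, 3.59 and 4.68 with EGFP. The OmoMYC samples had 3.38, 2.75 and 4.03, and the SNF5 samples 3.48, 2.75 and 3.44. Each OmoMYC and SNF5 sample lay below the EGFP sample of its number, and the SNF5 samples did not overlap with the EGFP samples, whereas the OmoMYC samples did. The log2 fold change was -0.37 (SE 0.065, 95% interval -0.52 to -0.23, edgeR adjusted p = 0.00283) with SNF5 and -0.31 (SE 0.065, interval -0.45 to -0.16, edgeR adjusted p = 0.0275) with OmoMYC, or 0.773-fold and 0.808-fold. SNF5 and OmoMYC differed by -0.06 (interval -0.21 to 0.08, edgeR adjusted p = 0.528). With OmoMYC, edgeR's adjusted p was 0.162 without EGFP replicate 1, 0.184 without EGFP replicate 2, 0.217 without OmoMYC replicate 1 and 0.194 without OmoMYC replicate 2. In these fits edgeR called 9, 6, 9 and 8 of all 15060 genes, in the same order, against 1351 with all samples. Over all 17 alternatives the BRD9 log2 fold change with OmoMYC ran from -0.38 to -0.26. With SNF5 edgeR's adjusted p for BRD9 was 0.0535 without the samples numbered 2. That fit called 1470 of all 15060 genes, against 5196 with all samples.

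TRIP13 and GNL3, the genes that share a start region with BRD9 and PBRM1, were also lower in the gene body: by edgeR, TRIP13 had log2 fold changes of -0.26 with SNF5 (adjusted p = 0.0184) and -0.34 with OmoMYC (adjusted p = 0.0257), and GNL3 of -0.40 (adjusted p = 0.00542) and -0.50 (adjusted p = 0.0173). PBRM1, on the other side of the GNL3 start, had 0.05 (interval -0.09 to 0.19) with SNF5 and 0.03 (interval -0.11 to 0.17) with OmoMYC. Its level lay between 1.23 and 1.45 in all 9 samples. Whether BRD9 and PBRM1, the genes with a recurrent MYC peak at the start, differed in response was not tested. The processed pseudogene BRD9P1 and the unprocessed pseudogene BRD9P2 resemble BRD9, BRD7 has 7 annotated processed pseudogenes and PHF10 has 1. The authors removed reads of low mapping quality before counting.

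DPF3, a DPF gene known for its part in heart and muscle, was higher with SNF5 from a very low level. Its gene body, 223150 bp long, held 17, 17 and 56 reads in the EGFP samples, in order of replicate number. The OmoMYC samples had 35, 41 and 58 and the SNF5 samples 82, 151 and 127. All 3 SNF5 samples lay above all 6 others, after scaling as well as in reads. The log2 fold change was 1.96 (SE 0.32, interval 1.23 to 2.68, edgeR adjusted p = 0.00217) against EGFP, or 3.88-fold, and 1.29 (SE 0.31, interval 0.60 to 1.98, edgeR adjusted p = 0.0179) against OmoMYC. OmoMYC against EGFP gave 0.66 (interval -0.10 to 1.42, edgeR adjusted p = 0.223), with the OmoMYC sample higher in 3 of 3 pairs.

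The reads of DPF3 are few, and EGFP replicate 3 had over 3 times as many as the other EGFP samples. Without that sample edgeR's adjusted p for OmoMYC against EGFP was 0.0358, at a log2 fold change of 1.18. The difference from OmoMYC was lost without any 1 of OmoMYC replicates 1, 2 or 3 or SNF5 replicates 1 or 2, with edgeR adjusted p from 0.0523 to 0.105. In these fits edgeR called from 1220 to 2263 of all 15060 genes for SNF5 against OmoMYC, against 2891 with all samples. Against EGFP, the SNF5 difference passed without each single sample. The open site at the DPF3 start (chr14:72894003-72894400, hg38) was listed in all 9 samples, with fold enrichments from 4.84 to 12.2 and the highest value in SNF5 replicate 2. Its promoter-proximal window held 0 to 3 reads per sample, too few to test.

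**Figure D3:**
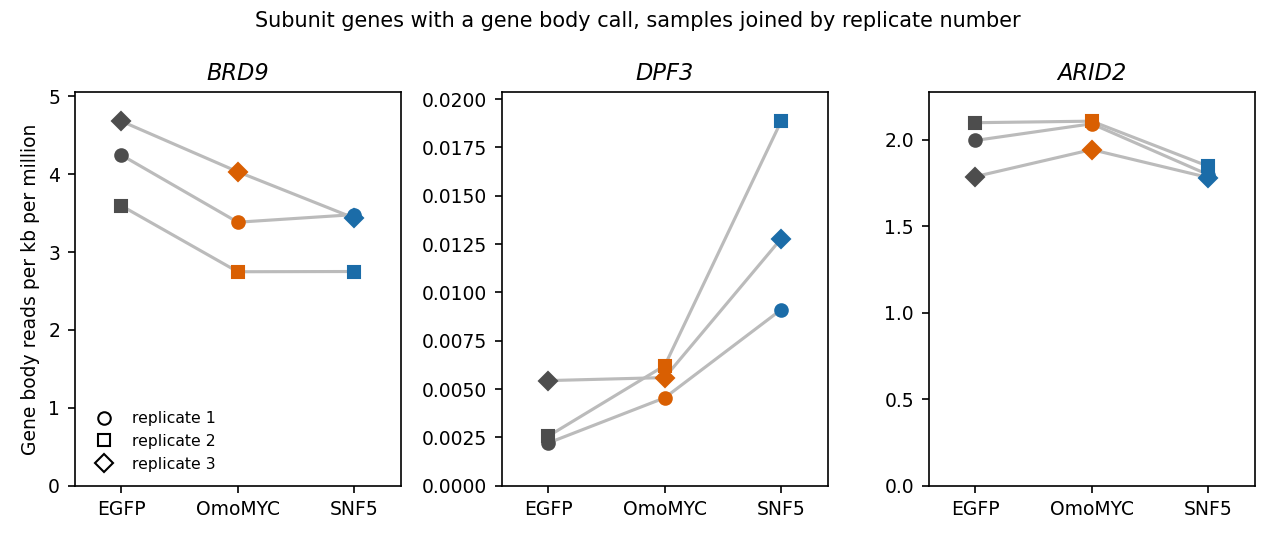
Gene body RPKM of BRD9, DPF3 and ARID2 with each construct, with samples of the same replicate number joined by a line and axes that start at 0. BRD9 is lower with both constructs in every pair, DPF3 is higher with SNF5 in every pair, and the ARID2 values differ little between constructs.

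ARID2, the AT-rich interaction domain subunit of PBAF (NM_152641, chr12:46123620-46301819, plus strand), differed between SNF5 and OmoMYC. Its level was 2.09, 2.11 and 1.94 with OmoMYC and 1.80, 1.85 and 1.78 with SNF5, and these groups did not overlap. With EGFP it was 2.00, 2.10 and 1.79, which overlapped with both. The log2 fold change of SNF5 against OmoMYC was -0.18 (interval -0.29 to -0.06, edgeR adjusted p = 0.0399). It was lost without any 1 of OmoMYC replicates 1, 2 or 3 or SNF5 replicates 1 or 2, with edgeR adjusted p from 0.0741 to 0.203. In these fits edgeR called from 1220 to 2263 of all 15060 genes, against 2891 with all samples. Against EGFP the log2 fold change of ARID2 was -0.11 (edgeR adjusted p = 0.117) with SNF5 and 0.06 (edgeR adjusted p = 0.440) with OmoMYC.

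The other members did not pass the test in the gene body. SS18, whose fusion with SSX genes marks synovial sarcoma, had the smallest log2 fold changes of the 10, 0.02 (interval -0.10 to 0.14) with SNF5 and 0.02 (interval -0.09 to 0.14) with OmoMYC. BRD7, a bromodomain subunit of PBAF, had -0.08 (interval -0.22 to 0.06) and -0.09 (interval -0.23 to 0.06). PHF10, a PHD finger subunit of PBAF, had -0.16 (interval -0.34 to 0.02) and -0.06 (interval -0.24 to 0.12). ACTL6A had -0.22 (interval -0.45 to 0.01) and -0.21 (interval -0.45 to 0.02).

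DPF2 had -0.17 (interval -0.38 to 0.05) with SNF5 and -0.09 (interval -0.30 to 0.13) with OmoMYC. DPF1, which is known from neurons, had -0.22 (interval -0.61 to 0.18) and 0.07 (interval -0.32 to 0.47), the widest intervals after DPF3. Some of these results changed when a sample numbered 3 was left out, as did the number of genes called in the whole table. For SNF5 against EGFP that number was 5196 of 15060 with all samples, 6025 without SNF5 replicate 3 and 5671 without EGFP replicate 3. For OmoMYC against EGFP it was 1351 with all samples and 3344 without EGFP replicate 3. Without SNF5 replicate 3, DPF2 was lower with SNF5 (log2 fold change -0.30, edgeR adjusted p = 0.00735). Without EGFP replicate 3, ACTL6A was lower with SNF5 (-0.34, edgeR adjusted p = 0.0255) and with OmoMYC (-0.33, edgeR adjusted p = 0.0437), and ARID2 was lower with SNF5 without EGFP replicate 3 or without SNF5 replicate 3 (edgeR adjusted p = 0.0284 and 0.0217).

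**Figure D4:**
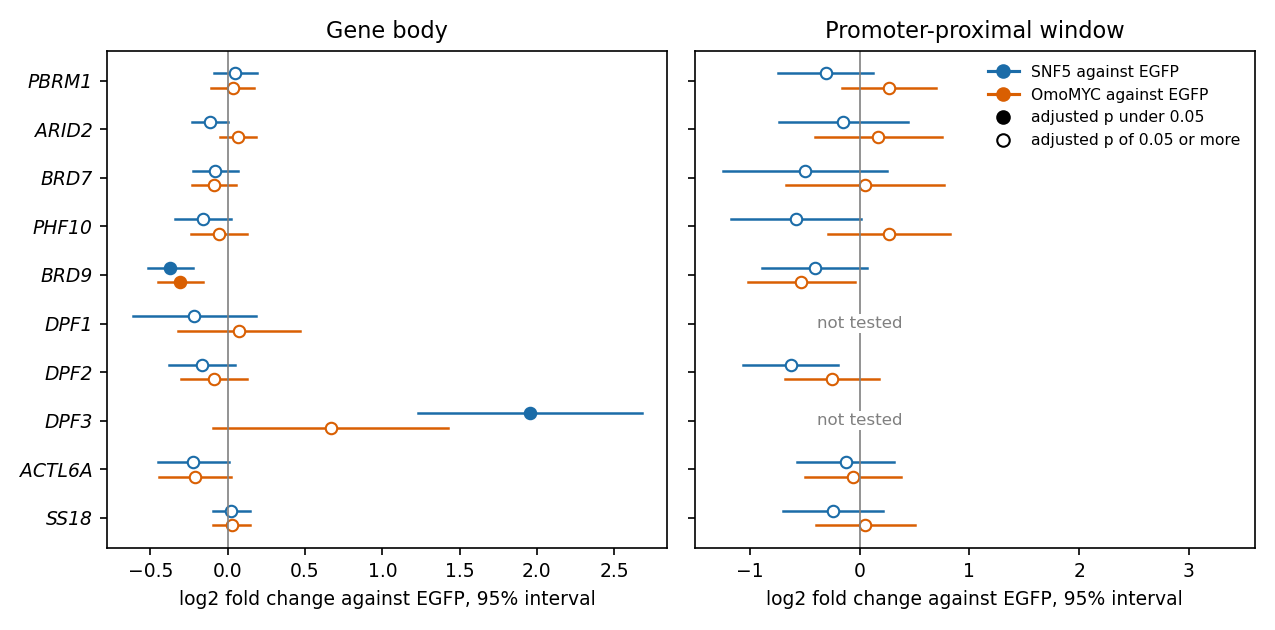
Log2 fold change with SNF5 and with OmoMYC against EGFP, with 95% intervals from edgeR, in the gene body (left) and the promoter-proximal window (right) of the 10 genes. Filled points passed an adjusted p of 0.05: BRD9 with both constructs and DPF3 with SNF5, both in the gene body only.

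Promoter-proximal reads were counted in the 50 bp window with most reads around the start, where polymerases pause before release into the gene body. DPF1, with 0 to 7 reads per sample, and DPF3 were under the minimum mean of 10 reads, which left 8 genes. For 4 of them the window was well filled: in the samples numbered 2 and 3, PBRM1 had 134 to 327 reads, DPF2 207 to 354, ACTL6A 226 to 304 and SS18 135 to 202. BRD9 had 52 to 101 there, and ARID2, BRD7 and PHF10 had 15 to 44.

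Of the 8 genes, 0 were called in each of the 3 comparisons of promoter-proximal reads (edgeR), beside 4.25% of all genes for SNF5 against EGFP, 1.58% for OmoMYC against EGFP and 0.836% for SNF5 against OmoMYC. At an unadjusted edgeR p under 0.05 the counts were 1, 1 and 2 of 8, beside 2265, 1725 and 1570 of all 11241 genes. With SNF5 against EGFP all 8 log2 fold changes were below 0, with a median of -0.36 and a range from -0.63 to -0.13. Over all genes tested, 55.0% were below 0 and the median was -0.05. With OmoMYC against EGFP 3 of 8 were below 0, with a median of 0.05 beside 0.12 over all genes.

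DPF2 came closest to a call. Its promoter-proximal level was 1.80, 10.2 and 7.67 CPM (reads for each 1000000 gene body reads) in the EGFP samples, in order of replicate number. The OmoMYC samples had 2.06, 8.52 and 5.14, and the SNF5 samples 1.41, 6.19 and 4.65. Each SNF5 value lay below the EGFP value of its number, although the groups overlapped because samples numbered 1 were low throughout. The log2 fold change with SNF5 was -0.63 (SE 0.21, interval -1.06 to -0.20, edgeR adjusted p = 0.0806). It passed when promoter-proximal reads were scaled by their own totals (-0.64, edgeR adjusted p = 0.0202) and without EGFP replicate 1 (-0.76, edgeR adjusted p = 0.0169). In these fits edgeR called 1043 and 1350 of all 11241 genes, against 478 with the scaling and samples used above. PHF10 had 0.986, 0.908 and 0.758 CPM with EGFP, 0.985, 1.42 and 0.860 with OmoMYC and 0.496, 0.669 and 0.606 with SNF5, and the SNF5 samples lay below all others. Its log2 fold change was -0.58 (edgeR adjusted p = 0.257) against EGFP and -0.85 (edgeR adjusted p = 0.157) against OmoMYC, on 20 to 42 reads per sample.

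The pausing index, the density of reads in the promoter-proximal window over that in the gene body, differed in level between the 8 genes. Its median in the EGFP samples was 88.6 for ACTL6A, 70.4 for PBRM1, 56.1 for DPF2 and 26.5 for SS18. It was 9.35 for BRD9, 8.68 for PHF10, 7.52 for ARID2 and 5.48 for BRD7. The EGFP ranges overlapped in part: SS18 ran from 9.28 to 35.4 and DPF2 from 12.6 to 71.3, against 4.64 to 15.9 for BRD9. In EGFP replicate 1, SS18 (9.28) lay below PHF10 (11.5). Within a gene and construct the index spread widely, for PBRM1 with EGFP from 16.9 to 136, and in EGFP it was lowest in replicate 1 for 6 of the 8 genes, the replicate with the fewest promoter-proximal reads. At ARID2, the ATAC-Seq site nearest the RefSeq start had summits from -834 to -164 bp from it, with a median of -748 bp. A further site, with summits from -2074 to -1921 bp, was listed in all 3 samples of each construct. The promoter-proximal window of ARID2 held 20 to 44 reads per sample. The part of the distance of the nearest site in this low count was not tested.

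**Figure D5:**
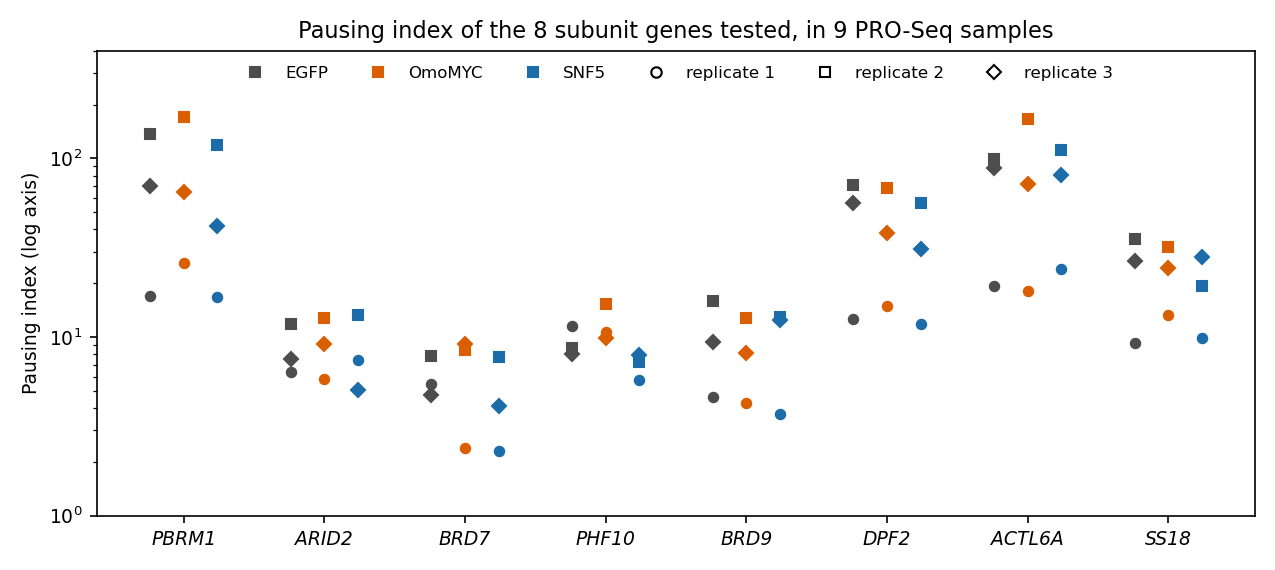
Pausing index (log axis) of the 8 genes with enough promoter-proximal reads in each of 9 PRO-Seq samples, with colour for the construct and symbol for the replicate number. PBRM1, DPF2, ACTL6A and SS18 lie higher than ARID2, BRD7, PHF10 and BRD9 at the same replicate number in most samples, and replicate 1 is low for the higher set.

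No pausing index passed the test. Of the 8 genes, 0 were called in each of the 3 comparisons by the interaction of region and construct (edgeR), beside 3.61%, 1.98% and 1.12% of all genes. At an unadjusted edgeR p under 0.05 the counts were 1, 0 and 2 of 8, beside 2076, 1719 and 1507 of all 11171 genes. With SNF5 against EGFP the log2 differences ran from -0.46 (DPF2, interval -0.91 to -0.01, edgeR adjusted p = 0.252) to 0.09 (ACTL6A, interval -0.37 to 0.55). For BRD9, whose gene body level was lower, the index differed by -0.03 with SNF5 (interval -0.53 to 0.48) and by -0.23 with OmoMYC (interval -0.74 to 0.29).

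The remaining subunits of the SWI/SNF complexes were counted from a list of 19 genes, of which 17 besides SMARCB1 were tested in the gene body. With SNF5, 0 rose and 5 fell by edgeR, beside 17.2% of all genes higher and 17.3% lower. These were the ATPase SMARCA4 (-0.18, adjusted p = 0.0241), the core subunits SMARCC1 (-0.19, adjusted p = 0.0137) and SMARCD3 (-0.33, adjusted p = 0.0319), the SS18 paralog SS18L1 (-0.29, adjusted p = 0.0059) and BCL7A (-0.57, adjusted p = 0.000483), each a log2 fold change by edgeR. With OmoMYC 0 of 17 passed, and against OmoMYC 2 fell with SNF5, SMARCD3 by 0.63 and BCL7A by 0.56 on the log2 scale. In the promoter-proximal window and the pausing index 0 of the 14 tested passed in any comparison. The median gene body log2 fold change of the 17 with SNF5 was -0.14, and that of the 10 genes described here was -0.14.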

How the data were processed

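G401 samples of 3 constructs were used: 9 PRO-Seq, 9 ATAC-Seq and 6 MYC ChIP-Seq samples. The 6 IgG samples were not used. The members, lists and tests were chosen with earlier results of these data known.

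The authors aligned MYC ChIP-Seq reads to hg19 and ATAC-Seq reads to hg38 with Bowtie2 and called peaks per sample with MACS2, at q-values of 0.01 and 0.001. The deposited peak lists give a fold ratio and −log10 p and q per peak. For PRO-Seq, the deposited table holds raw counts per RefSeq transcript made with NRSA on hg19. A second deposited column, a signal, is the authors' read density per bp of gene body, and was used to check the gene body length. Peak lists hold no read counts. The paper reports the total and mapped reads of each ChIP-Seq, ATAC-Seq and PRO-Seq sample, which were not used here. The total and mapped reads printed there for PRO-Seq are the same as those for ATAC-Seq.

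PRO-Seq counts were tested with edgeR 4.0.16 in R 4.3.3 (quasi-likelihood), with all 9 samples, the replicate number as a block, gene body totals times RLE factors as offsets for both regions, 1 transcript per symbol and a mean of at least 10 counts. That the numbers pair samples was checked by correlating deviations from construct means: gene body values gave 0.753 to 0.882 within a number and -0.668 to 0.126 between numbers, and promoter-proximal values 0.689 to 0.849 and -0.606 to -0.0584. Adjusted p-values are Benjamini-Hochberg over all genes. Intervals are 95%. All 10 members are named. A MYC peak counted at a start with its summit within 1 kb of the table's start, and an ATAC-Seq peak within 1 kb of a GENCODE release 44 start on GRCh38. No coordinate was converted. Alternatives varied scaling, test (DESeq2 1.42.0), filter, block, samples, transcripts and peak rules. The fits were tested on simulated data. Protein sequences were not used here.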

Additional observations from a re-analysis of the deposited data

How the results depend on the processing

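The alternatives gave 1366 values for single subunit genes, of which 1323 kept their side of the 0.05 threshold, 26 lost a call, 17 gained one, and 0 reversed the direction of a call. Most of these values belong to results that were not called and so had no call to lose. All 26 losses fell on the gene body calls, each with 17 alternatives. BRD9 lost its call in 2 with SNF5 and in 7 with OmoMYC. DPF3 lost it in 1 against EGFP and in 8 against OmoMYC, and ARID2 in 8 against OmoMYC. Without the replicate block the counts of called genes in the gene body went from 2 to 0 for SNF5 against EGFP, from 1 to 0 for OmoMYC against EGFP and from 2 to 0 for SNF5 against OmoMYC, with the BRD9 log2 fold change with SNF5 at -0.37 (edgeR adjusted p = 0.358) and that of DPF3 at 1.98 (edgeR adjusted p = 0.0851). Leaving out the block changed no other call among these genes, and left 218, 1 and 73 of all 15060 genes called in the gene body. With replicates or single samples left out, the counts ran from 1 to 5, from 0 to 3 and from 0 to 3 in the gene body, and from 0 to 1 in the promoter-proximal window for SNF5 against EGFP and for SNF5 against OmoMYC, where PHF10 was called without the samples numbered 3. In that fit without the samples numbered 3, 510 of all 11241 genes were called, against 94 with all samples. Promoter-proximal reads scaled by their own totals gave 1 called gene with SNF5 against EGFP, DPF2, beside 1043 of all 11241 genes. TMM factors, totals alone, DESeq2, the filters, 2 constructs at a time and every transcript as its own row kept all counts within 1.5 times. The number of genes called in the whole table moved more, in the gene body from 218 to 8595 with SNF5 against EGFP, from 1 to 6798 with OmoMYC against EGFP and from 73 to 6272 with SNF5 against OmoMYC. In the promoter-proximal window it ran from 0 to 1350, 853 and 510, and for the pausing index from 0 to 959, 1081 and 552.

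Genes with a MYC peak at the start numbered 2, and from 2 to 5 with 1 EGFP sample left out. Genes with an open site in all 3 samples went from 7 to 4 with EGFP and from 9 to 4 with SNF5 when each list was limited to the same number of top peaks, and with 1 sample left out ran from 7 to 8, 5 to 7 (OmoMYC) and 9 to 10. The share of all genes was not counted for these alternatives. Gains with SNF5 went from 0 to 1 with 2 of 3 samples as the rule, and from 0 to 1 with 1 sample left out, as did losses with OmoMYC. The causes of these shifts were not tested. Depth limits DPF1 and DPF3, which had too few promoter-proximal reads to test, and lists of peaks without counts limit every statement on binding and open chromatin to presence.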
